A study of Mus musculus with 2 samples.

Results

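The miRNAs described here are those known for steering mesenchymal stem cells (MSCs) towards bone, fat or cartilage. They are the 16 of 831 deposited entries whose name has the stem miR-22, miR-31, miR-138, miR-140, miR-204, miR-211, miR-335 or miR-455, with either arm of the hairpin. All 16 entries carry 1 miRNA name each. Microvesicles (MVs), small membrane vesicles that cells shed into the medium, were collected from cultures of primary bone marrow MSCs of young male C57BL/6 mice, grown in medium with fetal bovine serum and antibiotics for 48 h. The EPO-MV array (n = 1) holds total RNA of MVs from MSCs cultured with 100 IU/ml erythropoietin (EPO), the hormone that drives red blood cell formation. The MSC-MV array (n = 1) holds total RNA of MVs from MSCs cultured in the same way without EPO. The paper names the serum as a limitation and holds that its influence on both kinds of MVs was similar. Whether RNA from the serum adds to the intensities was not tested. The comparison addresses which miRNAs differ between the vesicles of EPO-treated and untreated MSCs. Because each condition has 1 array, no test could be run, and an effect of EPO and an effect of the culture or of the array cannot be told apart. Fewer vesicles that carry a miRNA and less of it in each vesicle cannot be told apart either. How many mice gave the cells is not given in the sources used here.

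A miRNA is cut from a hairpin precursor that yields a -5p and a -3p arm, and it recognises target mRNAs mainly through its seed, bases 2 to 8 from the 5′ end. MSCs become osteoblasts under the transcription factors Runx2 and Osterix, adipocytes under PPARγ and chondrocytes under Sox9. In published work on MSCs and skeletal tissue, miR-204 and miR-211 repress Runx2 and favour fat over bone, miR-31 represses Osterix, miR-138 restrains osteoblast formation through focal adhesion kinase, and miR-22 favours bone over fat through Hdac6. The miRNA miR-335, encoded in the imprinted gene Mest, targets Runx2 and the Wnt inhibitor Dkk1, and miR-140 and miR-455 are abundant in cartilage.

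The sequences on which the results turn are shown 5′ to 3′ with the seed in capitals, from RefSeq (GRCm38.p6), in which 15 of the 16 entries and 680 of the 831 were matched by name. The fate miRNA entry without a match is miR-140-5p, so its sequence is not shown and its seed was not compared. The arms of miR-455 are shown because both were lower in EPO-MVs, miR-140-3p because its ratio and that of the other arm of its hairpin lay on either side of 1, and miR-22-3p as a miRNA that favours bone. The pairs miR-204-5p with miR-211-5p and miR-138-1-3p with miR-138-2-3p are shown because their members are nearly identical and were read by separate entries.
mmu-miR-455-5p: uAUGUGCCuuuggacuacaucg
mmu-miR-455-3p: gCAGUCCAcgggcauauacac
mmu-miR-140-3p: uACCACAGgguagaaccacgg
mmu-miR-22-3p: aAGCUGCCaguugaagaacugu
mmu-miR-204-5p: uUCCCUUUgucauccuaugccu
mmu-miR-211-5p: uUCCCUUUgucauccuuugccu
mmu-miR-138-1-3p: cGGCUACUucacaacaccaggg
mmu-miR-138-2-3p: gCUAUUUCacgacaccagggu

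The arms of miR-455 lie at chr4:63256867-63256888 and chr4:63256904-63256924 (plus strand, GRCm38.p6), within the span of Col27a1, a cartilage collagen gene on the same strand. The miRNA miR-140-3p lies at chr8:107551288-107551308 (plus strand) within the span of Wwp2, a ubiquitin ligase gene, and miR-22-3p at chr11:75463772-75463793 (plus strand) within the non-coding host gene Mir22hg. The miRNA miR-204-5p lies at chr19:22750610-22750631 within the span of Trpm3, and miR-211-5p at chr7:64205831-64205852 within that of Trpm1, both ion channel genes of the same family and both on the plus strand. Of the other hairpins, Mir335 lies within Mest, Mir138-2 within Nup93 and Mir31 within the non-coding gene Gm49890, and no other annotated gene spans Mir138-1. Whether a hairpin falls in an exon or an intron was not determined here. The miRNAs miR-204-5p and miR-211-5p share the seed UCCCUUU and 21 of 22 bases, and differ by A17U, counted from the 5′ end of miR-204-5p. No other entry with a sequence shares a seed with any of the 15 matched members. The miRNAs miR-138-1-3p and miR-138-2-3p are identical in 18 of 20 overlapping bases (C7U and A13G, counted from the 5′ end of miR-138-1-3p), and because the overlap starts 2 bases into miR-138-1-3p their seeds are not the same.

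The deposited value is a normalized intensity on a linear scale. The values of an array are whole multiples of its smallest value (to within 1.83e-05 of it), called a step here, and 1 unit of normalized intensity is 471 steps for EPO-MVs but 447 for MSC-MVs. What a step is in scanner units, and whether background was subtracted before it, is not given in the sources used here. Intensities summed to 1957 for EPO-MVs and 2147 for MSC-MVs. Different probes bind with different strength, so the intensities of different miRNAs are not set against each other, and the comparison made is that of the same entry on both arrays. The entries were divided by mean log2 intensity into 4 groups of nearly equal size, called the dimmest, the second, the third and the brightest group. The standard deviation of the log2 EPO-MV/MSC-MV ratio across the entries of these groups was 1.26, 0.44, 0.37 and 0.30 in this order. This is a spread over different miRNAs and no replicate error. The 5 stromal marker entries (miR-143, miR-145a, miR-199a and miR-214) ranged from 3313 to 15024 steps in EPO-MVs and from 4228 to 22016 in MSC-MVs, and summed to 79.0 against 115 in normalized intensity. All 5 are in the brightest group, with ratios from 0.648 to 0.744, and 1 passed 1.5-fold, as lower (20.0%, against 7.25% of all entries in that group). The 6 blood cell marker entries ranged from 160 to 20714 steps in EPO-MVs and from 87 to 21839 in MSC-MVs, and summed to 67.6 against 79.9. Of these 6, 1 passed 1.5-fold as higher (miR-144-3p, ratio 1.75) and 1 as lower (miR-223-3p, ratio 0.659), and the ratios of the other 4 ran from 0.900 to 1.36. Over all entries 17.8% passed as higher and 7.58% as lower. The 5 epithelial marker entries, all in the dimmest and second groups, ranged from 6 to 68 steps in EPO-MVs and from 6 to 43 in MSC-MVs, and summed to 0.355 against 0.246. Of these 5, 3 passed 1.5-fold as higher, and miR-429-3p had a ratio of 0.712. Of all entries, 46.2% passed as higher in the dimmest group and 18.8% in the second. No marker entry was listed at 0, and the part of these differences in the results was not tested.

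Of the 16 fate miRNA entries, 14 stayed within 1.5-fold between EPO-MVs and MSC-MVs, the threshold taken from the fold change filter of the study. The other 2 were miR-204-5p, which was higher, and miR-455-5p, which was lower in EPO-MVs, and both are in the groups of dim entries, the dimmest and the second. This is 12.5% of the fate miRNAs, against 25.4% of all 831 entries (17.8% higher and 7.58% lower). Within 1.2-fold lay 8 of the 16 (50.0%), against 44.6% of all entries. The share of all entries past 1.5-fold was 61.1% in the dimmest group, which holds 2 of the fate miRNAs, 22.1% in the second (3 of them), 10.1% in the third (4 of them) and 8.21% in the brightest (7 of them). None of the 11 fate miRNAs in the third and brightest groups passed the threshold. The median log2 ratio of the 16 was -0.08, against 0.05 for all entries, and 11 of the 16 (68.8%) were lower in EPO-MVs by any amount, against 43.9% of all entries. Over the 5 scalings tried, 9 to 11 of the 16 were lower, against 39.0% to 49.9% of all entries. Ratios near 1, such as those of miR-31-3p and miR-204-3p, crossed 1 with some scalings, and that of miR-22-3p was 1.00 with quantile normalization. Ordered from dim to bright, the 4 intensity groups of all entries had 32.2%, 33.7%, 47.1% and 62.8% of their ratios below 1. In the dimmest 3 groups 8 of the 9 fate miRNAs were below 1 (2 of 2, 2 of 3 and 4 of 4), whereas in the brightest group 3 of 7 (42.9%) were, which is under the share of all entries there.

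**Figure D1:**
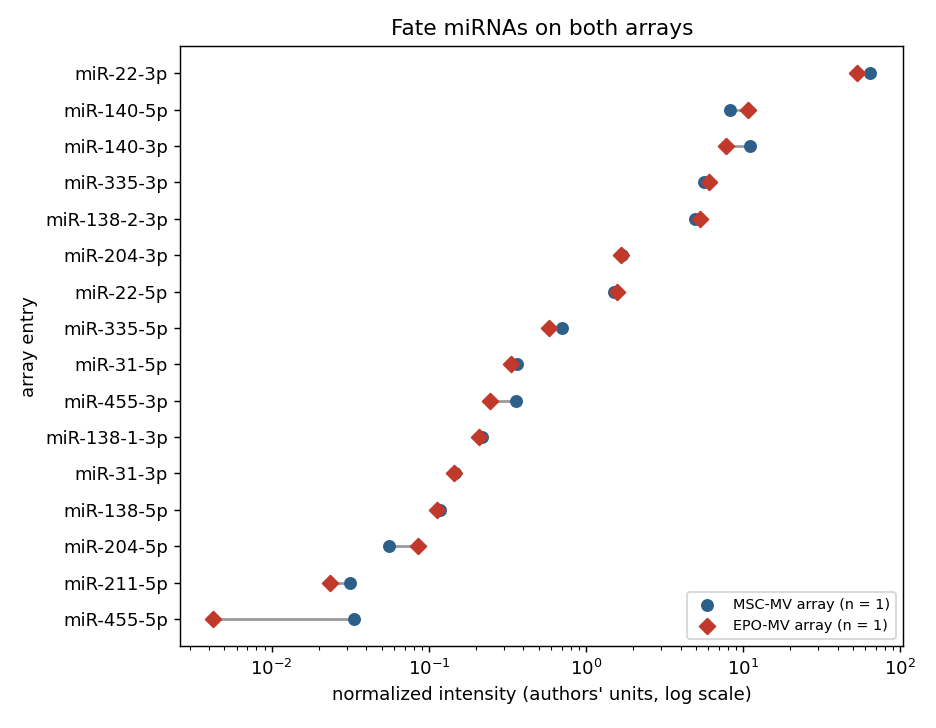
Normalized intensity (log scale, authors' units) of each of the 16 fate miRNA entries on the MSC-MV array (circles) and the EPO-MV array (diamonds), n = 1 each, joined by a line and ordered by mean log2 intensity; entries are separate probes, so only the points of 1 row can be compared. The points of miR-455-5p (0.0336 and 0.00425) lie farthest apart.

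**Figure D2:**
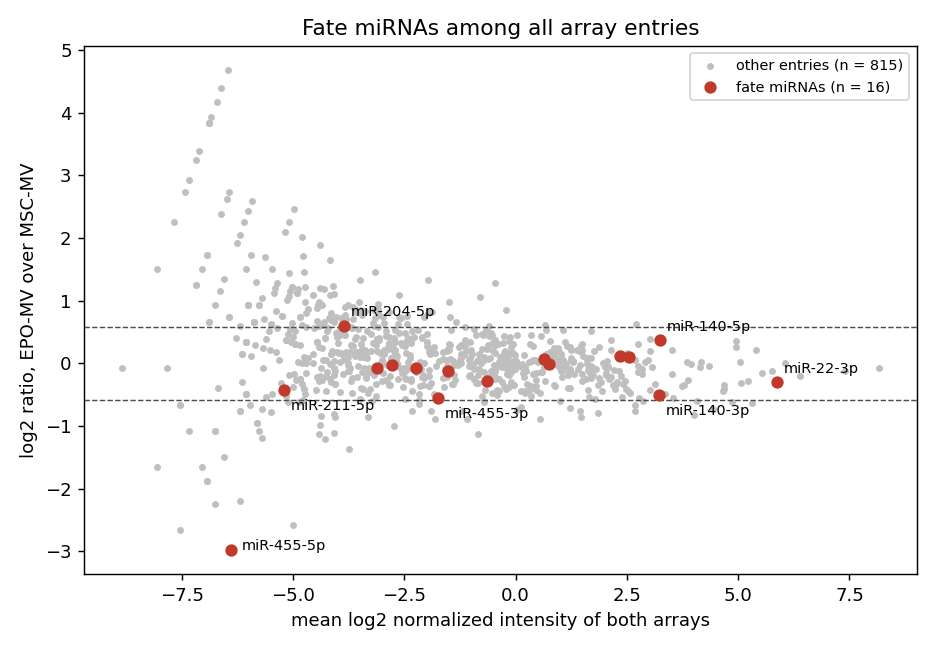
Log2 EPO-MV/MSC-MV ratio against the mean log2 intensity of both arrays for the 16 fate miRNA entries (large points) and the other 815 entries (small points), with dashed lines at 1.5-fold. The scatter of all entries widens towards low intensity, and miR-455-5p, at -2.98, is the lowest point of the plot.

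Among the cartilage miRNAs, both arms of miR-455 were lower in EPO-MVs. The entry mmu-miR-455-5p had a normalized intensity of 0.00425 in EPO-MVs against 0.0336 in MSC-MVs, which is 2 steps against 15 steps. Its ratio of 0.127 (7.90-fold lower, log2 ratio -2.98) was the lowest of all 831 entries. The size of this ratio rests on a value 1 step above the smallest deposited for the EPO-MV array. It was 0.203 when both arrays were moved 1 step towards each other, and 0.677 with a pseudocount of 0.0573, which exceeds both values and ended the call. For mmu-miR-455-3p, which has another seed, the values were 0.244 in EPO-MVs against 0.360 in MSC-MVs, or 115 and 161 steps. Its ratio of 0.678 fell just short of the threshold of 0.667, and it passed with re-centring on the median of all entries (0.655) and with lowess (0.653). Only 11 of the 208 entries in its intensity group, the third, had a lower ratio. The ratio of miR-455-3p stayed between 0.653 and 0.722 under all 10 alternatives that gave it a value, and that of miR-455-5p between 0.0747 and 0.677 under the 8 that did.

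The arms of miR-140, the best known cartilage miRNA, had ratios on either side of 1. The -3p arm had 7.77 in EPO-MVs against 11.1 in MSC-MVs (3658 and 4947 steps), a ratio of 0.702. The -5p arm had 10.7 in EPO-MVs against 8.30 in MSC-MVs (5033 and 3708 steps), a ratio of 1.29. Neither passed 1.5-fold. Both are in the brightest group, where 21 of the 207 entries had a lower ratio than miR-140-3p and 9 had a higher ratio than miR-140-5p. The difference between the log2 ratios of the arms was 0.88, which is 1.84-fold. It was 0.86 with quantile normalization, 0.87 with the pseudocount and with the shift of 1 step, and 0.88 with lowess. The other scalings multiply a whole array by 1 number and leave this difference as it is by construction.

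The arms were compared in the same way in the 217 other hairpins with 1 entry for each arm. The median difference between arms, without regard to sign, was 0.44 on the log2 scale over these hairpins and 0.25 over the 12 of them with both arms in the brightest group. None of these 12 had a difference as large as that of miR-140, and the highest of them was 0.62. Of the 51 other hairpins with both arms in the third or brightest group, 2 had a difference at least as large as miR-140, and of all 217 other hairpins 51 did. For miR-455, with its -5p arm at 2 steps in EPO-MVs, the difference was -2.42 (-5p minus -3p), and 11 of the 217 had one at least as large. The other 4 fate hairpins had differences of 0.62 for miR-204, -0.38 for miR-335, 0.35 for miR-22 and -0.09 for miR-31. The arms had ratios on either side of 1 in 4 of the 6 fate hairpins (66.7%), against 44.2% of the 217. With quantile normalization and with lowess they did in 3 of the 6, against 39.6% and 42.9% of the 217. The miRNA miR-140 was singled out after its values were seen, and these positions are a description of 2 arrays.

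**Figure D3:**
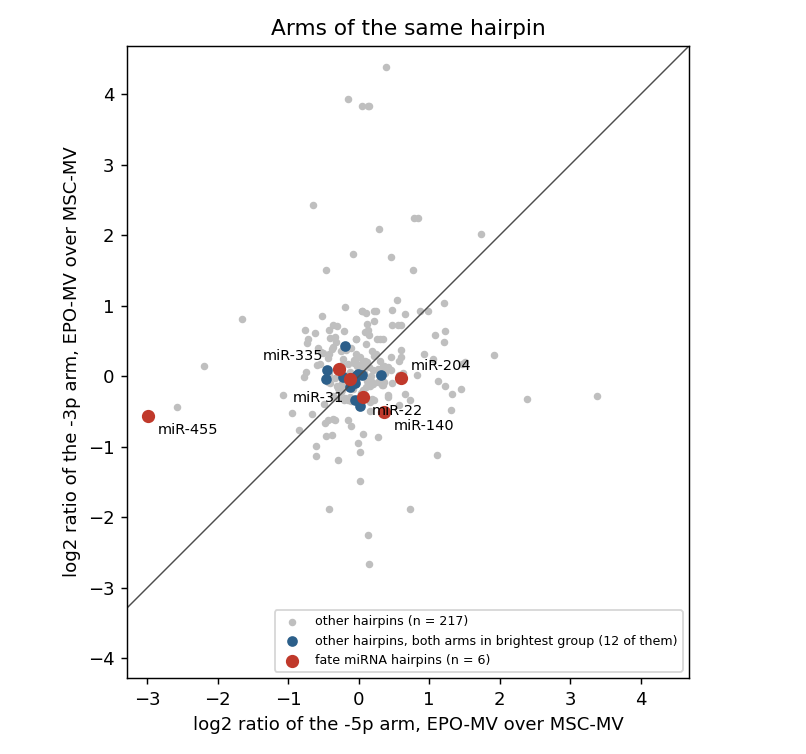
Log2 EPO-MV/MSC-MV ratio of the -5p arm (horizontal) and of the -3p arm (vertical) for 6 fate miRNA hairpins (large points) and 217 other hairpins with 1 entry per arm (small points), of which 12 have both arms in the brightest group (medium points). On the diagonal both arms have the same ratio; miR-140 lies to its right at 0.37 and -0.51, and miR-455 to its left at -2.98 and -0.56.

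The miRNAs miR-204-5p and miR-211-5p, the seed pair that represses Runx2, had ratios on either side of 1. The values of miR-204-5p were 0.0849 in EPO-MVs against 0.0559 in MSC-MVs, or 40 and 25 steps, a ratio of 1.52. Those of miR-211-5p were 0.0234 and 0.0313, or 11 and 14 steps, a ratio of 0.746. Both are dim, and in their intensity groups 37 of 208 entries had a higher ratio than miR-204-5p and 40 of 208 a lower one than miR-211-5p. The call of miR-204-5p was lost with re-centring on all entries (1.47), quantile normalization (1.26), lowess (1.28), the pseudocount (1.26) and a shift of 1 step on each array (1.42). The ratio of miR-211-5p, 11 against 14 steps, was 0.538 with quantile normalization and 0.545 with lowess, past the threshold as lower, but 0.876 with the shift of 1 step and 0.910 with the pseudocount. Since the pair differs at 1 base, whether each probe reads its own miRNA alone was not tested. The -3p arm of miR-204 had 1.67 and 1.69 (787 and 757 steps), a ratio of 0.987.

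Neither arm of miR-22, which favours bone over fat, passed 1.5-fold. The miRNA miR-22-3p had 52.7 in EPO-MVs against 64.5 in MSC-MVs (24839 and 28845 steps), a ratio of 0.817, and 56 of the 207 entries in its intensity group had a lower ratio. Under the alternatives its ratio ran from 0.789 to 1.00. The -5p arm of miR-22 had 1.58 and 1.51 (744 and 677 steps), a ratio of 1.04. Both arms also stayed within 1.5-fold under each alternative tried.

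Both arms of miR-31, the repressor of Osterix, were near 1. The -5p arm had 0.335 in EPO-MVs against 0.365 in MSC-MVs (158 and 163 steps), a ratio of 0.920. The -3p arm had 0.144 and 0.148 (68 and 66 steps), a ratio of 0.978.

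The mature miR-138-5p, which restrains osteoblasts, is made from both Mir138-1 and Mir138-2, whereas the -3p arms of these genes differ in sequence. Whether the probe of each -3p arm reads that arm alone was not tested. The values of miR-138-5p were 0.113 in EPO-MVs against 0.119 in MSC-MVs, with 53 steps on both arrays, a ratio of 0.949. Those of miR-138-1-3p were 0.208 and 0.219, with 98 steps on both arrays and the same ratio of 0.949, which is the ratio that equal steps give. Those of miR-138-2-3p were 5.32 and 4.91 (2507 and 2195 steps), a ratio of 1.08. The log2 ratios of the -3p arms, -0.08 and 0.12, lay on either side of 0. In their intensity groups 81 of 208 entries had a lower ratio than miR-138-1-3p and 46 of 207 a higher one than miR-138-2-3p.

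For miR-335, from the imprinted Mest locus, the -5p arm had 0.580 in EPO-MVs against 0.705 in MSC-MVs (273 and 315 steps), a ratio of 0.823. The -3p arm had 6.04 and 5.64 (2846 and 2522 steps), a ratio of 1.07. In the third group, 39 of the 208 entries had a lower ratio than miR-335-5p.

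**Figure D4:**
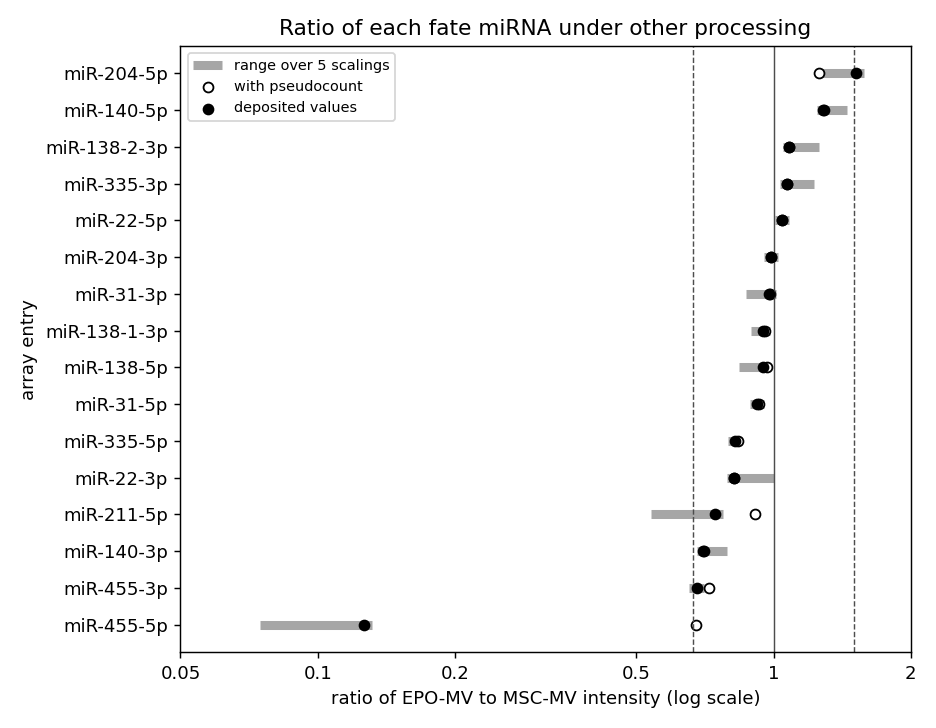
EPO-MV/MSC-MV ratio (log scale) of each fate miRNA entry with the deposited values (filled points), with a pseudocount of 0.0573 (open points) and over 5 scalings (grey bars), with a solid line at 1 and dashed lines at 1.5-fold in both directions. With the deposited values, miR-204-5p (1.52) and miR-455-5p (0.127) lie outside the dashed lines; with the pseudocount both lie inside, at 1.26 and 0.677.

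Other miRNAs with a known part in mesenchymal fate were counted from a list ordered by role. The list goes by stem, so it counts both arms of a hairpin, whichever arm has the known role. Of its 58 entries, 6 were at least 1.5-fold higher and 6 lower in EPO-MVs, which is 20.7% against the 25.4% of all entries. Among the 36 entries listed for bone, 3 were higher (8.33%, against 17.8% of all entries) and 5 lower (13.9%, against 7.58%). Those for bone include miR-29a, miR-29b, miR-30a to miR-30e, miR-34a, miR-34c, miR-125b and miR-214. Among the 16 entries listed for fat (such as miR-27, miR-103, miR-130 and miR-143), 2 were higher (12.5%) and 1 was lower (6.25%). Among the 6 entries listed for cartilage (miR-145a, miR-199a and miR-675), 1 was higher (16.7%) and none was lower. The 6 higher entries were miR-148a-5p, miR-218-2-3p, miR-30c-1-3p, miR-130a-5p, miR-378a-5p and miR-675-3p. The other arm of each of these hairpins did not pass as higher. Of the 58 entries, 43 (74.1%) were lower in EPO-MVs by any amount, with a median log2 ratio of -0.23 (41 to 44 of them over the 5 scalings). Over all entries these values were 43.9% (39.0% to 49.9% over the 5 scalings) and 0.05, and over the brightest group 62.8% and -0.08. Of the 12 changed entries, 7 were among the 9 of the list in the dimmest group (77.8%, against 61.1% of all entries there), with 5 higher and 2 lower at 2 to 23 steps. None of the 6 in the second group changed, and 1 of the 16 in the third did, as higher. In the brightest group 4 of 27 changed (14.8%, against 8.21%), all lower, where 7.25% of all entries were lower and 0.966% higher. These 4, named after their values were seen, were miR-29a-3p (ratio 0.563), miR-30b-5p (0.608), miR-34a-5p (0.629) and miR-143-3p (0.648). Of the 4, only 2 passed with lowess and 1 with quantile normalization (3.86% of all entries in the group were lower with either). With the 75th percentile 3 of them passed (4.83%). With re-centring on all entries 5 of the 27 were lower, these 4 among them (9.18%). By any amount, 25 of the 27 (92.6%) were lower, against 62.8% of all entries in that group, and 22 (81.5%, against 45.4%) to 26 (96.3%, against 72.5%) over the 5 scalings. These shares are a description of 2 arrays, and family members of near-identical sequence are among the 27. All 5 stromal marker entries are also among the 27, and miR-143-3p is both a stromal marker and 1 of the 4 named, so the list and these markers are in part the same entries.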

How the data were processed

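Total RNA of MVs was labelled with Hy3 and hybridized to a miRCURY LNA Array, whose probes contain locked nucleic acids. The authors read intensities with GenePix Pro, averaged the spots of each miRNA and median-normalized the arrays with a factor from miRNAs whose intensity reached 30 in every sample, which gave the deposited normalized intensity. The channel read, background correction and choice of the 831 entries are not given in the sources used here.

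The EPO-MV/MSC-MV ratio was computed per entry, without a pseudocount or a filter, and an entry counted as changed at 1.5-fold or more. All 16 entries that the name rule found are named. The members and the lists were chosen with earlier results of these data known. Entries were placed in 4 groups of nearly equal size by mean log2 intensity. The number of arrays, 1 per condition, limits the precision. The counting was tested on simulated data without noise, with changes set larger than the threshold. That checks the code and does not measure how often a call is wrong. In all, 11 alternatives were set and 1 was added after the values were seen (both arrays moved 1 step towards each other). Lowess used a span of 0.4 and 3 iterations. Calculations used Python 3.11.15, pandas 2.3.3, numpy 2.4.6, statsmodels 0.14.6 and matplotlib 3.10.9.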

Additional observations from a re-analysis of the deposited data

How the results depend on the processing

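Of the 16 fate miRNAs, 2 changed with the deposited values (1 higher, 1 lower). At a fold threshold of 2, 1 changed (0 higher, 1 lower; 10.6% of all entries), and at 1.2, 8 did (2 higher, 6 lower; 55.4%), as the threshold itself sets. Requiring 30 steps or more on both arrays, 0 of 13 changed (10.8% of all such entries), and above the median intensity 0 of 11 (9.16%), because miR-204-5p and miR-455-5p were left out. With the pseudocount at the 25th percentile, which shrinks dim ratios by construction, 0 changed (6.50% of all entries). With both arrays moved 1 step towards each other 1 changed, with 0 higher (19.1% of all entries). Re-centring on all entries gave 0 higher and 2 lower (16.1% and 8.54% of all entries), quantile normalization 0 and 2 (11.4% each), and lowess 0 and 3 (11.1% and 11.6%). Beyond what these constructions set, the cause was not tested. The counts were the same after re-centring on the brighter entries, with scaling to the 75th percentile, and without entries that name several miRNAs. The median log2 ratio of the members, -0.08, was -0.0550 with the pseudocount, -0.13 with re-centring on all entries, -0.0365 with re-centring on the brighter entries, -0.14 with quantile normalization, -0.0222 with the 75th percentile, -0.16 with lowess and -0.0335 with the 1-step shift. No called ratio changed direction under any alternative. No background level is given in the sources used here, so no entry is called detected. No paired analysis was possible because the design has 1 array for EPO-MVs and 1 for MSC-MVs.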
